A study of Homo sapiens with 6 samples.

Results

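The 10 genes described here encode subunits of the transcription factor AP-1 (JUN, JUNB, JUND, FOSL1, FOSL2), the related factor ATF3, the stress proteins GADD45A and GADD45B, and the immediate early response proteins IER2 and IER3. They were selected by gene symbol from the deposited FPKM table, and all 10 were among its 11456 genes. The choice was made with earlier results of these data known. The cells were HepG2-hCAR, a clone of the human hepatoma line HepG2 grown from 1 puromycin-selected cell. It carries human CAR, the constitutive androstane receptor, as a lentiviral cDNA that doxycycline switches on. Both groups carried this transgene: 3 libraries were made from vehicle controls and 3 from cells treated with doxycycline at 1 µg/ml, all at 72 h. Doxycycline was not given to cells lacking the transgene, so an effect of the drug itself and one of CAR cannot be told apart.

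AP-1 is a dimer of basic leucine zipper proteins. Jun proteins pair with each other or with Fos proteins, and the choice of partner sets DNA binding and activity. Many AP-1 genes are immediate early genes, transcribed within minutes of a growth factor or stress signal without new protein synthesis, and in liver they are known for their induction early in regeneration. GADD45 proteins are small acidic stress proteins that bind the kinase MAP3K4, PCNA and cell cycle regulators, and GADD45B is known to be induced by CAR activators in mouse liver.

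With doxycycline, 4 of the 10 genes rose: IER2 2.01-fold, FOSL2 1.67-fold, FOSL1 1.65-fold and JUN 1.33-fold. IER3, by far the most abundant of the 10, fell 1.08-fold. JUNB, JUND, ATF3, GADD45A and GADD45B did not pass the test, although GADD45B had the largest fitted difference over all 6 libraries. Without doxycycline replicate 1 or vehicle replicate 2 its log2 fold change, 0.70 and 0.89, was below that of IER2, 0.94 and 0.95. Of all 10469 genes tested, 28.8% were called, 15.2% higher and 13.6% lower, at an adjusted p below 0.05 with limma on log2(FPKM + 1). A log2 fold change below is a difference of mean log2(FPKM + 1), doxycycline minus vehicle, a fold is a ratio of mean FPKM, and errors are SDs over n = 3 libraries per group.

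The mRNA of NR1I3, the gene of CAR, was at 3.01 to 3.57 FPKM in the vehicle and 315.6 to 331 FPKM in the doxycycline libraries, as the labels state. FPKM, a fragment count divided by transcript length and by a library's mapped fragments, is a relative unit, so it follows a gene's share of the sequenced mRNA and not its amount per cell. All 8 markers of hepatocyte-derived cells examined were present, with a summed level of 1260 to 1330 FPKM in vehicle and 562 to 626 FPKM in doxycycline libraries. The cells were a clone, and bulk samples cannot tell whether these mRNAs were lower in every cell or only in some. Of markers of other cell types, 1 of 5 for fibroblasts (PDGFRB, 0.798 to 0.966 and 1.4 to 1.47 FPKM), none of 4 for endothelium and 1 of 4 for blood cells (CD68, 8.37 to 8.74 and 4.37 to 5.48 FPKM) were in the table. Such a marker does not show that cells of that type were present in this clone, and this was not tested. Separate cultures are not stated in the labels for the libraries of a group, so p-values measure the spread between these libraries, which may be technical.

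JUN, the founding subunit of AP-1, activates transcription strongly and can bind DNA as a dimer with itself. Its level was 19.1, 19.3 and 19.4 FPKM in the vehicle libraries and 24.3, 25.5 and 27.4 FPKM in the doxycycline libraries. Every doxycycline library was above every vehicle library, and the vehicle values lay within a narrow range. JUN rose from 19.3 ± 0.129 to 25.7 ± 1.53 FPKM, a log2 fold change of 0.40 (SE 0.047, limma adjusted p = 0.00181).

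JUNB, a weaker activator that can oppose JUN, was at 13.5, 16.2 and 16.5 FPKM in vehicle and at 15.6, 13.5 and 16.0 FPKM in doxycycline libraries. The 2 groups overlapped, with 1 low library in each. Its log2 fold change was -0.03, with a 95% interval of -0.26 to 0.21 (limma adjusted p = 0.859), and its sign turned when vehicle replicate 2 or 3 or doxycycline replicate 2 was left out (0.01 to 0.04). The span of JUNB overlaps that of HOOK2 on the opposite strand. HOOK2 was at 2.46 ± 0.383 and 2.31 ± 0.104 FPKM, and the use of strand in the authors' counting is not given in the sources used here.

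JUND, the Jun protein associated with resting cells, was at 35.6, 35.1 and 36.4 FPKM in vehicle and at 34.2, 30.5 and 33.5 FPKM in doxycycline libraries. All 3 doxycycline values were below the vehicle values, with doxycycline replicate 2 lowest. The mean was 35.7 ± 0.628 against 32.7 ± 1.96 FPKM. The log2 fold change of -0.12 (95% interval -0.24 to -0.01) did not pass the test over all genes (limma adjusted p = 0.109), and it was -0.07 without doxycycline replicate 2.

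**Figure D1:**
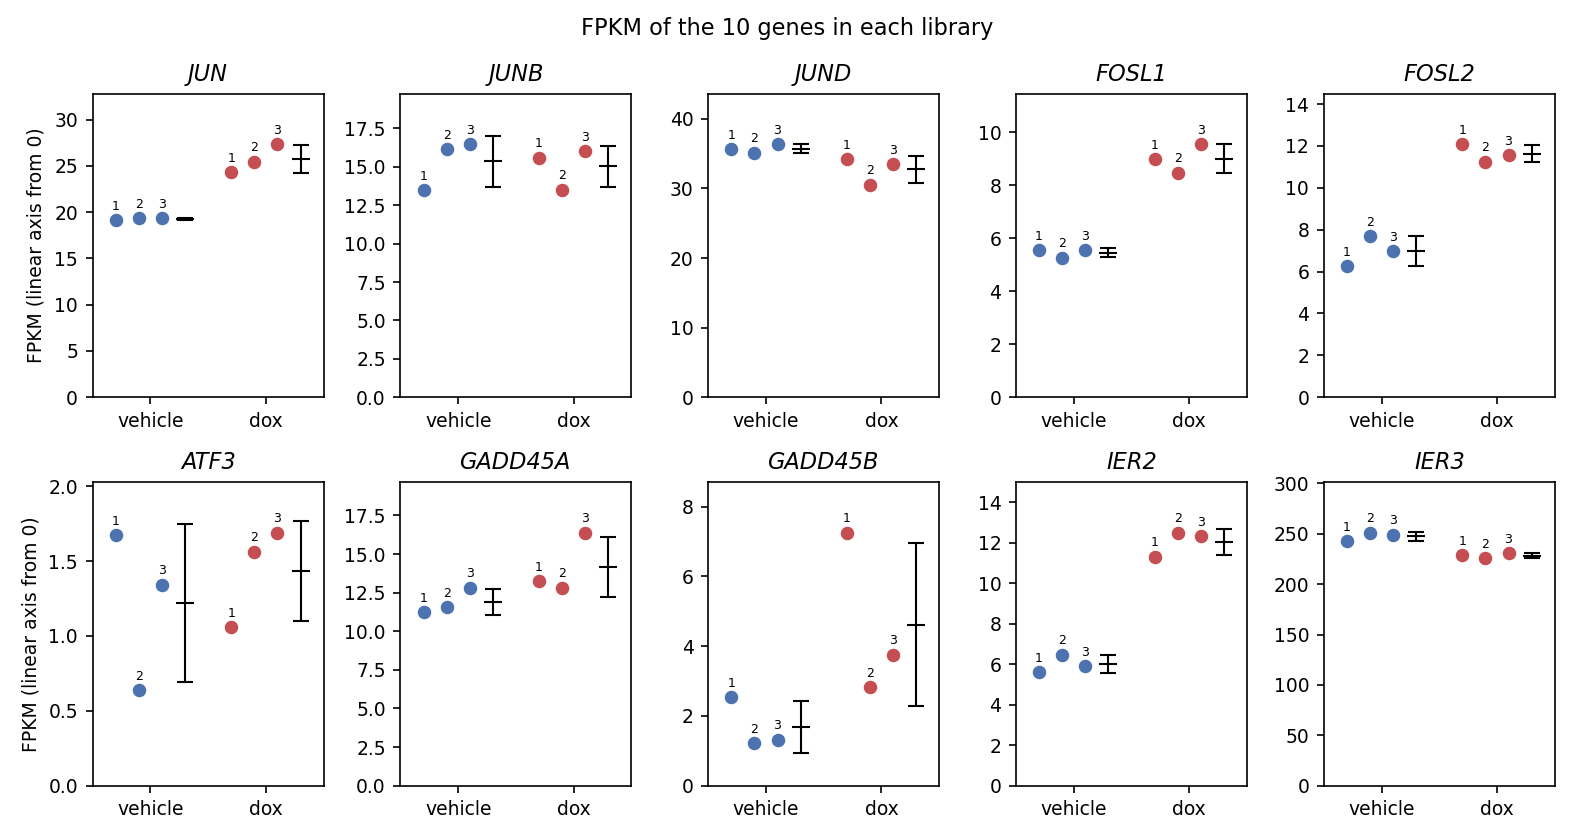
FPKM of the 10 genes (vertical axis, linear from 0) in the 3 vehicle (blue) and 3 doxycycline (red) libraries. Numbers give the replicate, and the black bar beside the points is the mean ± SD; the groups do not overlap for JUN, JUND, FOSL1, FOSL2, IER2, IER3 and GADD45B, and GADD45B varies from 2.82 to 7.26 FPKM among the doxycycline libraries.

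Within the Jun family only JUN was called, and because FPKM is per length the levels of the 3 genes can be set side by side. JUN made up 28.0%, 27.4% and 26.8% of the summed FPKM of JUN, JUNB and JUND in the vehicle libraries and 32.8%, 36.6% and 35.6% in the doxycycline libraries. This share was 27.4% ± 0.611 against 35.0% ± 1.96, a difference of 7.6 percentage points with no overlap between groups (exact two-sided permutation p = 0.1, the smallest that 3 against 3 libraries allow). JUND held 50.8% ± 1.29 of the sum in vehicle and 44.5% ± 1.39 in doxycycline libraries, and JUNB 21.8% ± 1.8 and 20.4% ± 0.863. The sum itself was 68.2 to 72.2 FPKM in vehicle and 69.5 to 76.9 FPKM in doxycycline libraries, ranges that overlap.

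FOSL1 and FOSL2 encode FRA-1 and FRA-2, Fos proteins that lack the strong activation domain of FOS and outlast it after a stimulus. Neither can bind DNA without a Jun partner. FOSL1 was at 5.56, 5.27 and 5.55 FPKM in vehicle and at 8.99, 8.48 and 9.56 FPKM in doxycycline libraries. The lowest doxycycline value was well above the highest vehicle value. FOSL1 rose from 5.46 ± 0.164 to 9.01 ± 0.541 FPKM, a log2 fold change of 0.63 (SE 0.054, limma adjusted p = 0.00048).

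FOSL2 was at 6.27, 7.69 and 6.98 FPKM in vehicle and at 12.1, 11.2 and 11.6 FPKM in doxycycline libraries, again without overlap. It rose from 6.98 ± 0.712 to 11.6 ± 0.425 FPKM, a log2 fold change of 0.67 (SE 0.073, limma adjusted p = 0.00131). The pair thus moved by much the same ratio from neighbouring levels. Their summed level was 12.4 ± 0.574 FPKM with vehicle and 20.6 ± 0.796 FPKM with doxycycline. Set against the 3 Jun genes, this sum was 17.7% ± 0.584 of the Jun sum with vehicle and 28.1% ± 0.544 with doxycycline, values given as a description with no test.

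FOS, whose product is the classical partner of JUN, was at 1.13, 1.51 and 1.43 FPKM in vehicle and at 1.41, 1.23 and 1.07 FPKM in doxycycline libraries, which overlap (limma adjusted p = 0.587). FOS is named here after its values were seen.

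**Figure D2:**
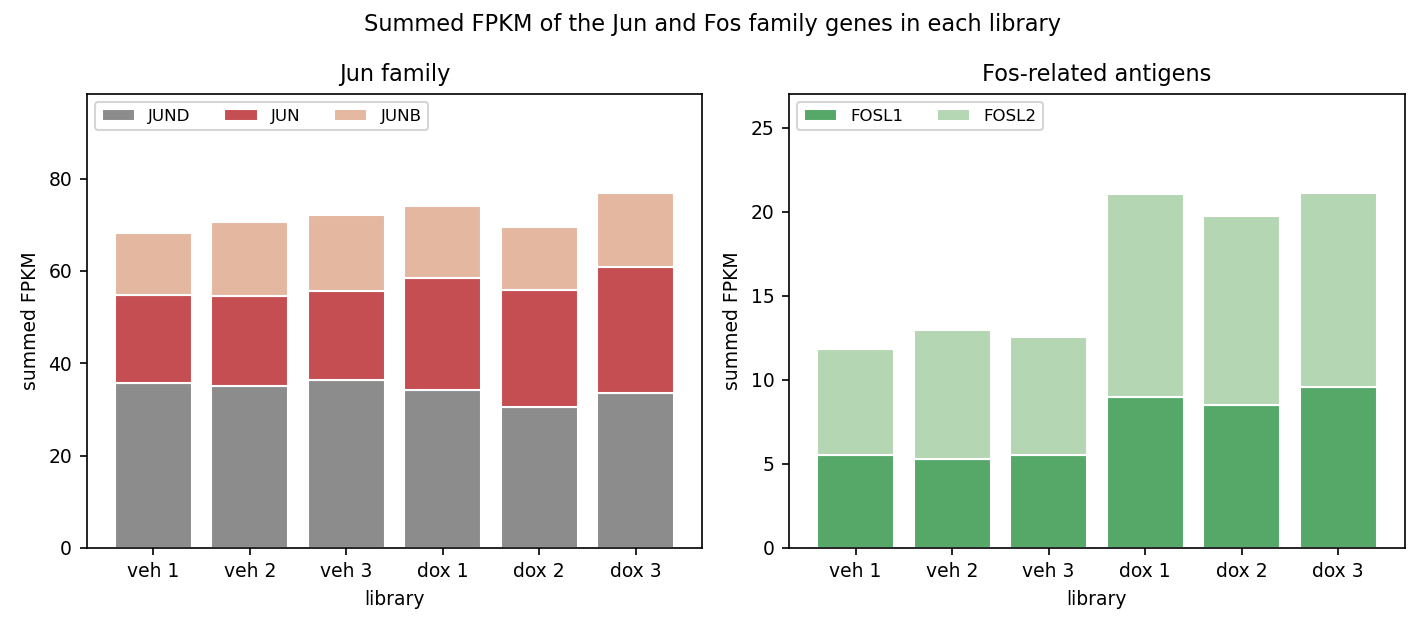
Summed FPKM (vertical axes, from 0) of the Jun genes (left) and of FOSL1 and FOSL2 (right) in each library, with 1 colour per gene. The FOSL1 and FOSL2 sum is 11.8 to 13.0 FPKM in the vehicle and 19.7 to 21.1 FPKM in the doxycycline libraries, while the Jun sums of the groups overlap.

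ATF3, a stress-induced repressor that pairs with Jun proteins, was at 1.67, 0.639 and 1.34 FPKM in vehicle and at 1.06, 1.56 and 1.69 FPKM in doxycycline libraries. The groups overlapped, and the lowest and the second highest of all values were both from vehicle cells. The log2 fold change was 0.16, with a 95% interval of -0.33 to 0.65 (limma adjusted p = 0.613), and it turned to -0.05 without vehicle replicate 2. Changes within that interval could not be resolved at this spread. Its mean level over the 6 libraries, 1.33 FPKM, was higher than that of only 3.98% of the genes tested.

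IER2, a nuclear protein of the immediate early class, was at 5.6, 6.47 and 5.91 FPKM in vehicle and at 11.3, 12.5 and 12.3 FPKM in doxycycline libraries. The groups were far apart, each with an SD under 1 FPKM. IER2 rose from 5.99 ± 0.443 to 12.0 ± 0.641 FPKM, a log2 fold change of 0.90 (SE 0.064, limma adjusted p = 0.000235). This was above the log2 fold change of 98.6% of the genes tested.

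IER3, a stress-inducible protein known for limiting or promoting apoptosis in different settings, was at 243, 251 and 249 FPKM in vehicle and at 229, 226 and 231 FPKM in doxycycline libraries. The groups did not overlap, although the shift was small. IER3 fell from 248 ± 4.47 to 228 ± 2.47 FPKM, a log2 fold change of -0.12 (SE 0.023, limma adjusted p = 0.0132). The call ended with quantile normalization (adjusted p = 0.132, log2 fold change -0.07), with limma without the variance trend (0.0562) and without vehicle replicate 3 (0.0511), over a range of 0.00913 to 0.132. IER3 was more abundant than 99.4% of the genes tested.

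GADD45A, a p53-inducible brake on the cell cycle and partner of MAP3K4, was at 11.2, 11.5 and 12.8 FPKM in vehicle and at 13.2, 12.8 and 16.4 FPKM in doxycycline libraries. Vehicle replicate 3 and doxycycline replicate 2 met at nearly the same value. The log2 fold change was 0.23, with a 95% interval of -0.01 to 0.47 (limma adjusted p = 0.14). Doxycycline replicate 3 was the highest library, and without it the log2 fold change was 0.13.

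GADD45B, which restrains the kinase MAP2K7 in the JNK pathway, was at 2.54, 1.21 and 1.31 FPKM in vehicle and at 7.26, 2.82 and 3.76 FPKM in doxycycline libraries. All doxycycline values were above all vehicle values, but replicate 1 was the highest library in both groups. The mean went from 1.69 ± 0.738 to 4.61 ± 2.34 FPKM, 2.73-fold, with a log2 fold change of 1.02 (95% interval 0.23 to 1.81, limma adjusted p = 0.0621 over all genes). Without doxycycline replicate 1 the log2 fold change was 0.70 (adjusted p = 0.101), and without doxycycline replicate 2 it was 1.25 (adjusted p = 0.0486), over a range of 0.00868 to 0.161.

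The spread of GADD45B was large for its level. Its coefficient of variation, the SD as a percentage of the mean, was 43.7% in vehicle and 50.7% in doxycycline libraries, where the median of the 4000 genes with a mean of 1 to 5 FPKM was 8.17% and 8.18%. For ATF3 it was 43.3% and 23.2%. GADD45B made up 18.4%, 9.51% and 9.29% of the summed FPKM of GADD45A and GADD45B in vehicle and 35.4%, 18.1% and 18.6% in doxycycline libraries. These shares overlapped between the groups (12.4% ± 5.21 and 24.0% ± 9.84, exact two-sided permutation p = 0.2). The difference of 11.6 percentage points was 5.95 without doxycycline replicate 1. GADD45G, the remaining family member, was not analysed here.

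**Figure D3:**
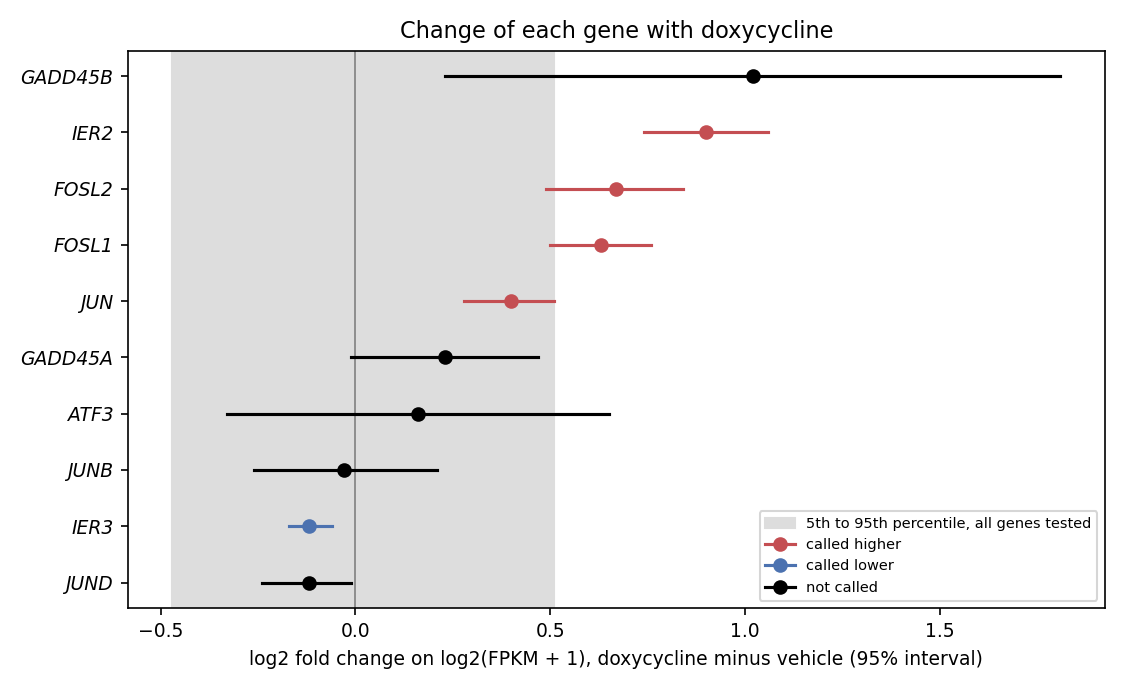
Log2 fold change of each gene on log2(FPKM + 1) (horizontal axis), doxycycline minus vehicle, with the 95% interval of the limma fit. Grey marks the 5th to 95th percentile of all genes tested, -0.47 to 0.51; IER2, FOSL2 and FOSL1 have estimates above it, and so does GADD45B, whose interval is the widest.

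Over the whole group, 4 of 10 were called higher and 1 lower, beside 15.2% and 13.6% of all genes tested. The groups did not overlap in 7 of the 10 (47.1% of all genes), 5 with doxycycline above (24.8% of all genes) and 2 with doxycycline below (22.3%). The median log2 fold change was 0.31 for the 10 genes and 0.01 for all genes tested. All 10 passed the filter of a mean of at least 1 FPKM. Since the 10 were chosen with earlier results of these data known, these shares are a description only.

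In vehicle cells the order of levels was IER3, JUND, JUN, JUNB, GADD45A, FOSL2, IER2, FOSL1, GADD45B and ATF3. Only FOSL2 and IER2, and GADD45B and ATF3, overlapped as neighbours in that order. With doxycycline IER2 stood above FOSL2, with overlapping libraries, and JUNB overlapped GADD45A, while GADD45B and ATF3 no longer overlapped. No other position changed. In GRCh37, 7 of the 10 span less than 5000 bases, as do 8.59% of the genes tested, whose median span is 30927 bases. FOSL1 (8525 bases), FOSL2 (24865) and ATF3 (55444) are longer, and ATF3 is above that median. The shortest is IER3 (chromosome 6, 30710976 to 30712331, minus strand, 1356 bases), and JUN covers 3540 bases of chromosome 1 (59246460 to 59249999, minus strand). JUNB (12902310 to 12904129), IER2 (13261229 to 13265722), JUND (18390570 to 18392432) and GADD45B (2476120 to 2478257) all lie on chromosome 19, where JUNB and JUND did not pass the test and IER2 rose.

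The 250 bases before the start of 5 genes are shown because JUN, FOSL2 and IER2 rose together, JUND is the family contrast to JUN, and GADD45B had the largest fitted difference over all 6 libraries. They come from RefSeq on GRCh38.p14, which held an entry for 7 of the 10 genes, with 2 starts for ATF3. Capitals mark matches to the motifs searched, and each sequence is written 5′ to 3′ in the direction of the gene.
JUN (chr1:58784048-58784297, minus strand): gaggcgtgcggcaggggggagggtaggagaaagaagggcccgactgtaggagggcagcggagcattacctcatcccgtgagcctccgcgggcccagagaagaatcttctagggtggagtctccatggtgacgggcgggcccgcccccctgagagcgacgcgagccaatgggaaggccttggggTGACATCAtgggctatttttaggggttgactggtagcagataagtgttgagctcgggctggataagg
JUND (chr19:18281623-18281872, minus strand): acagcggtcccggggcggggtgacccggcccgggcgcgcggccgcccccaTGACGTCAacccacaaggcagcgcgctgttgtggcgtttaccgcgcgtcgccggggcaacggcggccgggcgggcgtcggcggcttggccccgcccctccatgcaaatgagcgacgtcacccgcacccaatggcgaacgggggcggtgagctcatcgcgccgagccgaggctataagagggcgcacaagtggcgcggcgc
FOSL2 (chr2:28392608-28392857, plus strand): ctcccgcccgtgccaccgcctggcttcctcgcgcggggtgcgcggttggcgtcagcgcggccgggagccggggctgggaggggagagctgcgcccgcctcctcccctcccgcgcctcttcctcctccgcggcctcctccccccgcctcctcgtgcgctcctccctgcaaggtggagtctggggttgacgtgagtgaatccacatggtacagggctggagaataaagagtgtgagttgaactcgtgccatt
IER2 (chr19:13150161-13150410, plus strand): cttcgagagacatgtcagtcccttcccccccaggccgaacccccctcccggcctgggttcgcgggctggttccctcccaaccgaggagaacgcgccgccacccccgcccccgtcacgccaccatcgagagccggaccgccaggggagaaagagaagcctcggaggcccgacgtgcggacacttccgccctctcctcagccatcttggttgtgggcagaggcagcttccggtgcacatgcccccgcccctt
GADD45B (chr19:2475877-2476126, plus strand): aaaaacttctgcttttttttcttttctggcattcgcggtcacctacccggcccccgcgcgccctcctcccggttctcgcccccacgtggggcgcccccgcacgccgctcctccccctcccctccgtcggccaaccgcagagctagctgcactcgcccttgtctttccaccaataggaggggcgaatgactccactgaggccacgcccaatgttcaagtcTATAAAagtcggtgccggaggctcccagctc

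Motifs were searched on both strands in these windows and in all 35116 promoters of the table, and a match is a description of letters, not of a bound site. JUN holds TGACATCA, known as the element through which AP-1 acts on the JUN promoter, at bases 67 to 60 before the start. This motif is in 2.37% of all promoters, and among the 8 windows of the 7 genes also in the first of ATF3. JUND holds the cyclic AMP response element TGACGTCA at bases 200 to 193 before the start, found in 1.65% of all promoters. TATAAA, in 10.7% of promoters, lies at bases 31 to 26 before the start of both GADD45B and JUNB, and in the second ATF3 window. The AP-1 site TGANTCA (6.57% of promoters), the CArG box of serum response factor (1.16%), the ATF4 and C/EBP composite TGATGCAA (0.772%) and a direct repeat of AGNTCA spaced by 4 bases, the kind CAR binds with RXR (0.094%), had no match in any of the 8 windows. FOSL2 and IER2, which rose, hold none of the motifs searched, which says only that these letters are not in this window.

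Of the other genes that encode AP-1 subunits and their basic leucine zipper partners, 14 were tested, and 6 rose and none fell. That is 42.9% called, all higher, beside 15.2% of all genes called higher and 28.8% called in either direction. The median log2 fold change of the 14 was 0.15. This list and those below were chosen with earlier results of these data known, so their shares are a description only. BATF, which pairs with Jun proteins and is best known in lymphocytes, was at 2.10, 3.21 and 3.05 FPKM in vehicle and at 8.48, 9.39 and 9.76 FPKM in doxycycline libraries. That is a 3.3-fold increase without overlap (log2 fold change 1.44, limma adjusted p = 0.00054), larger than that of any of the 10 genes. CEBPB, a liver factor of the acute phase, rose 1.29-fold to 46.8 ± 3.27 FPKM, and MAFG, a small Maf protein, rose 1.23-fold to 17.1 ± 0.763 FPKM.

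Among other immediate early genes, 28 of 40 listed were tested, and 17 rose and 2 fell (67.9% called, beside 28.8% of all genes; 60.7% higher, beside 15.2%). Their median log2 fold change was 0.28, and that of all genes 0.01. As with the other lists, the choice of these genes was not independent of the data. DUSP5, a nuclear phosphatase of ERK, was at 4.53, 5.40 and 5.52 FPKM in vehicle and at 17.8, 16.0 and 17.6 FPKM in doxycycline libraries. It rose 3.32-fold (log2 fold change 1.56, limma adjusted p = 6.74e-05). PLK3, a stress-activated polo-like kinase, rose 1.94-fold, and MCL1, a short-lived protector from apoptosis, rose 1.55-fold to 73.7 ± 1.31 FPKM. DUSP6, a cytoplasmic ERK phosphatase, fell from 29.4 ± 0.654 to 23.7 ± 2.76 FPKM, and this call was lost without vehicle replicate 1, 2 or 3 or doxycycline replicate 2 (adjusted p 0.0152 to 0.107 over 16 alternatives). ERRFI1, an inhibitor of the EGF receptor, fell from 271 ± 6.82 to 244 ± 8.61 FPKM, a call that ended with quantile normalization, without the variance trend and without vehicle replicate 1 or 2 or doxycycline replicate 2 or 3 (adjusted p 0.02 to 0.406). EGR1, the zinc finger factor often induced together with FOS, was at 8.55 ± 0.282 and 7.91 ± 0.576 FPKM and did not pass (limma adjusted p = 0.256), a gene named after its values were seen.

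**Figure D4:**
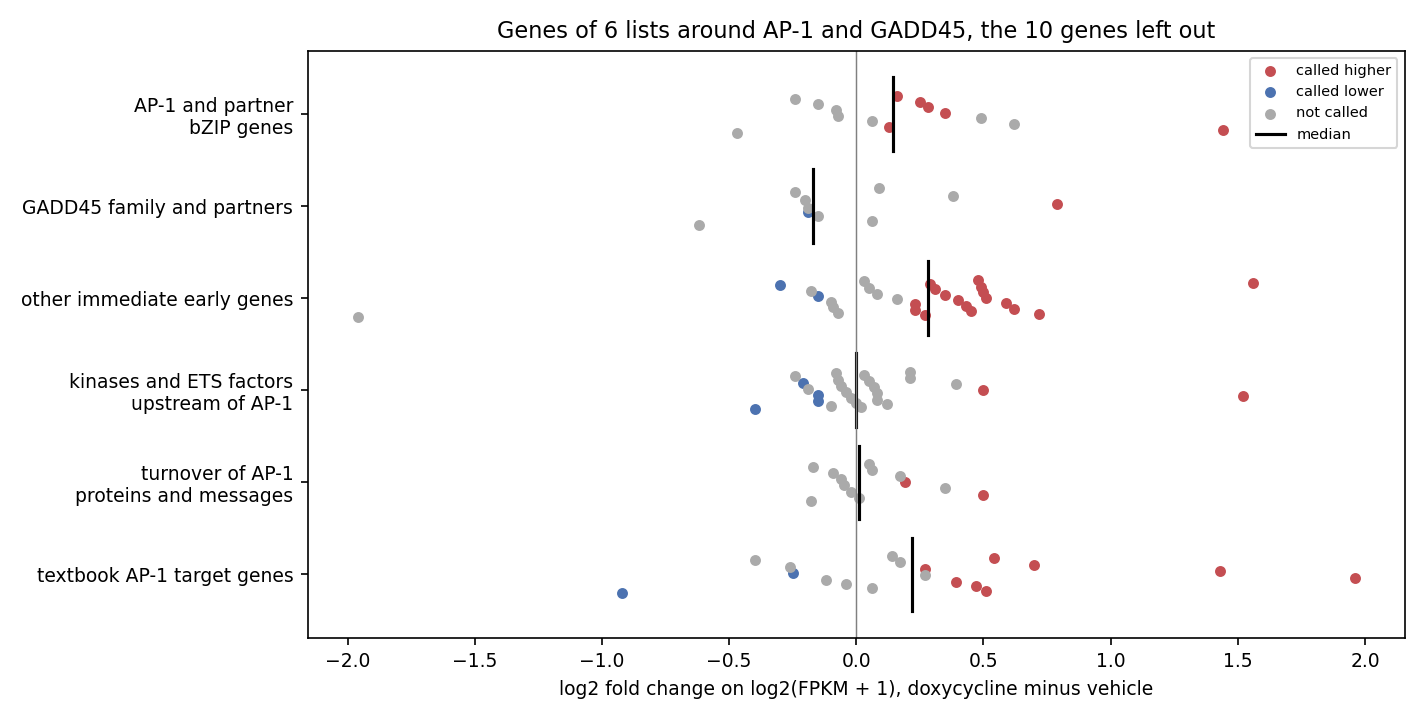
Log2 fold change on log2(FPKM + 1) (horizontal axis) of the tested genes of 6 lists (rows), the 10 genes left out. Red points were called higher, blue lower and grey not called, vertical position within a row has no meaning, and the black line is the median, which is 0.28 for other immediate early genes and -0.17 for GADD45 partners.

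Of 25 tested genes that act upstream of AP-1, 2 rose and 4 fell. Besides kinases and transcription factors, these include the phosphatases DUSP8 and DUSP16 and the scaffold proteins MAPK8IP1 and MAPK8IP3. The 24.0% called was near the 28.8% of all genes, and the median log2 fold change was 0.00. MAP2K3, an activator of p38 kinases, fell from 13.1 ± 1.07 to 9.67 ± 0.544 FPKM. MAPK3, a kinase of the growth factor pathway, fell 1.18-fold. The MAPK3 call ended without vehicle replicate 1 or 3 or doxycycline replicate 1 or 2 (adjusted p 0.0161 to 0.0645 over the alternatives). MAPK13, a p38 kinase, rose 1.46-fold to 13.1 ± 0.403 FPKM. ELK3, a ternary complex factor that binds beside serum response factor, was at 13.9, 5.21 and 4.98 FPKM in vehicle and at 22.6, 22.0 and 22.9 FPKM in doxycycline libraries. Vehicle replicate 1 stood between the other vehicle libraries and the doxycycline group. ELK3 was called higher (limma adjusted p = 0.0223), and the call ended without vehicle replicate 2 or 3 or any 1 of the doxycycline replicates (range 9.02e-05 to 0.0679).

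Of 10 tested partners of GADD45 proteins, 1 rose and 1 fell, 20.0% called beside 28.8% of all genes. CDKN1A, the cell cycle inhibitor p21, rose 1.76-fold (log2 fold change 0.79, limma adjusted p = 0.000831), and CCNB1, cyclin B1, fell from 61.1 ± 1.08 to 53.3 ± 1.18 FPKM. The kinases MAP3K4 (6.53 ± 0.308 and 5.39 ± 0.578 FPKM) and MAP2K7 (3.05 ± 0.253 and 2.56 ± 0.271 FPKM), targets of GADD45 proteins named after their values were seen, did not pass (adjusted p = 0.0672 and 0.136).

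Of 13 tested genes for turnover of AP-1 proteins and messages 2 rose, ZFP36L1, which destabilizes AU-rich mRNA (1.44-fold), and GSK3B, a kinase that marks JUN for degradation (1.16-fold). The 15.4% called, all higher, was below the 28.8% of all genes called and near the 15.2% called higher. Genes described in textbooks as AP-1 targets numbered 18 tested of 30, of which 8 rose and 2 fell (55.6% called, beside 28.8% of all genes). HBEGF and PLAU, both among the 8, had a vehicle mean below 1 FPKM and passed the filter on low values only through the doxycycline libraries, where they were high. Of the 16 others 6 rose and 2 fell, with a median log2 fold change of 0.15. HBEGF, a ligand of the EGF receptor, was at 0.746, 1.10 and 0.873 FPKM in vehicle and at 4.15, 4.04 and 4.23 FPKM in doxycycline libraries, given here as a description. PLAU, urokinase, was at 0.64 ± 0.135 and 1.67 ± 0.267 FPKM. CXCL8, the chemokine interleukin-8, rose from 1.65 ± 0.387 to 9.33 ± 1.26 FPKM, by 1.96 on the log2 scale. SPP1 fell by 0.92, and VEGFA fell by 0.25 on that scale, a call that ended without vehicle replicate 2 or 3 or doxycycline replicate 2 or 3 (adjusted p 0.0289 to 0.103). Many of these genes have other regulators. The lists overlap, with FOS, SRF, ZFP36, ZFP36L1, ZFP36L2, MAP3K4 and MAP2K7 each in 2 of them.

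The genes whose values over the 6 libraries were most like those of GADD45B, by Pearson's r on log2(FPKM + 1) among 10459 genes, were PROSER1 (r = 0.977), ZFP90 (0.977), PIGC (0.976), C4BPA (0.975) and SF3B4 (0.974), and 23 genes had an r above 0.95. All 6 points share the 2 treatment groups. Each of the 5 was highest within its group in replicate 1 of vehicle and of doxycycline, as GADD45B was. Because the 5 were picked for likeness to GADD45B over these same libraries, that shared peak follows from the choice and is no separate finding. Their changes were small: PIGC, an enzyme of membrane anchor synthesis, was called higher at 1.18-fold (limma adjusted p = 0.0483), and the other 4 were not called, with folds of 1.1 to 1.4.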

How the data were processed

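The authors deposited gene values as FPKM, with 1 column per library and 3 libraries per group. FastQC, cutadapt, HISAT2, StringTie and GRCh37 are named per the submitters' processing notes, with versions and options not given in the sources used here. Poly(A) RNA was selected and strand-specific libraries were made, per the labels' protocols. All 11461 entries are protein-coding, and the smallest larger group mean is 0.500, so low genes were not analysed here. No counts were used, so the depth is unknown and no counting interval is given.

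The entry with the highest mean represented each of 5 repeated symbols, which left 11456 genes. Those with a mean of at least 1 FPKM (10469) were fitted on log2(FPKM + 1) with limma 3.58.1 (R 4.3.3), with group as the only term and a variance trend (two-sided, Benjamini-Hochberg adjustment over all genes tested). The 2 shares were tested by exact permutation over libraries. Recovery of known changes was tested on simulated data. Of planted log2 changes of 0.5, 1 and 2, 75%, 81.2% and 97.5% were recovered, with 11 false among 175 calls. The changes were planted only in genes above a set vehicle level, so recovery for low genes was not tested. Of each list, besides the 10 genes, up to 3 called genes per direction with the largest change are named, and 1 gene that this rule names is not reported here. The 10 genes and the lists were chosen with earlier results of these data known. The alternatives were other pseudocounts, filters, scalings and moderation, a replicate block, summed entries, a stricter limit and leaving out each library. Figures used matplotlib 3.10.9.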

Additional observations from a re-analysis of the deposited data

How the results depend on the processing

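JUN, FOSL1, FOSL2 and IER2 were called higher in all 16 alternatives run for each, with log2 fold changes of 0.35 to 0.43, 0.59 to 0.71, 0.60 to 0.73 and 0.86 to 1.00. JUND and GADD45A were called in none and kept their sign. The number of the 10 genes called lower, 1, became 0 with quantile normalization, without the variance trend and at an adjusted p below 0.01, and was 0 to 1 when single libraries were left out. At that stricter limit 1636 genes were called in place of 3012, 875 higher and 761 lower. With single libraries left out, the log2 fold change of JUNB ranged from -0.11 to 0.04 and that of ATF3 from -0.05 to 0.30. JUNB reversed to 0.01 without vehicle replicate 2, to 0.02 without vehicle replicate 3 and to 0.04 without doxycycline replicate 2, and ATF3 to -0.05 without vehicle replicate 2. The cause was not tested. With the replicate number as a block, 6 of the 10 genes were called, beside 2343 of all 10469 genes tested in place of 3012. GADD45B was among the 6 (log2 fold change 1.02, limma adjusted p = 0.00868), and the calls of MAPK3 and VEGFA ended. Deviations of same-numbered libraries from their group means correlated at 0.015, -0.0321 and 0.0917 across genes. The value for replicate 3 was the highest of all pairs, and vehicle replicate 1 with doxycycline replicate 2 was next (0.0836). With values this low the numbers were not taken to pair the libraries, although correlations across all genes do not speak to a pairing that acts on few genes. Of the 10 genes, ATF3 and GADD45B have no value with a minimum mean of 5 FPKM, nor do other low genes named here, such as HBEGF, PLAU and PLK3. With the depth unknown, the spread between libraries is the limit for genes near 1 FPKM such as ATF3.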

Other observations

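Several genes of the lists that the rule did not name, chosen here after their values were seen, also rose. CCND1, the G1 cyclin D1, went from 69.9 ± 0.399 to 102 ± 0.242 FPKM (limma adjusted p = 2.67e-05). EZR, the membrane linker ezrin, went from 85.7 ± 1.95 to 119 ± 1.92 FPKM, and TIMP1, an inhibitor of matrix metalloproteinases, from 34.3 ± 0.822 to 49.2 ± 1.9 FPKM. CYR61 and CTGF, the table's symbols for the matricellular proteins CCN1 and CCN2, went from 5.33 ± 0.494 to 7.61 ± 0.42 FPKM and from 41.1 ± 1.87 to 55.8 ± 2.09 FPKM. PPP1R15A, the GADD34 regulator of translation, rose 1.35-fold.

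A few listed genes were uneven within the vehicle group. MAFF, a small Maf protein, was at 3.24, 3.30 and 0.953 FPKM in vehicle and at 3.70, 3.55 and 3.58 FPKM in doxycycline libraries. NFE2L2, the oxidant response factor NRF2, was at 26.0, 11.1 and 16.4 FPKM in vehicle and at 27.4, 25.9 and 25.9 FPKM in doxycycline libraries. MYC, an immediate early growth regulator, was at 3.20, 23.4 and 36.4 FPKM in vehicle and at 3.19, 2.90 and 2.99 FPKM in doxycycline libraries, and did not pass the test (log2 fold change -1.96, 95% interval -3.87 to -0.04, limma adjusted p = 0.116). Vehicle replicate 1 lay just above the doxycycline values. Of all genes tested, 9.97% were highest in replicate 1 of both groups, as 1 of the 10 genes was.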
